A study of Mus musculus with 12 samples.

Results

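The secretory pathway kinases Pkdcc, Fam20a, Fam20b and Fam20c are described here in the mouse osteosarcoma lines Dunn and LM8. They are 4 of the 20144 genes that could be named on the arrays and are read by 5 of 39429 probes, 1 each for Pkdcc, Fam20a and Fam20b and 2 for Fam20c. The members were chosen by the measured log2 difference between LM8 and Dunn, since Pkdcc showed the largest measured loss in LM8, and the Fam20 genes were taken with it as relatives. The differences between the lines therefore chose the members and are given as a description, without a test. The passage comparisons were not the contrast that chose the members and were tested. Pkdcc was chosen for its low signal in LM8. Its passage difference in LM8, and the difference of its passage effects between the lines, are therefore descriptions only. Dunn is a mouse osteosarcoma line of low metastatic potential and LM8 is the highly metastatic line obtained from it by selection in vivo, so that each metastatic phenotype is represented by 1 line. Dunn cells were profiled at passage 25 (early) and passage 86 (late) and LM8 cells at passage 24 (early) and passage 91 (late), all labelled osteoblastic and grown in DMEM/F12 with fetal calf serum, with 3 replicates described as independent in each of the 4 groups. The 12 single-colour arrays lay on 3 slides of 4, each slide carrying 1 array of every group, always at the same position of the slide, so that position and group cannot be told apart.

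Proteins that pass through the endoplasmic reticulum and the Golgi apparatus are phosphorylated by a small group of kinases that reside there or are secreted themselves. Pkdcc, also called vertebrate lonesome kinase, is a secreted tyrosine kinase that phosphorylates proteins of the secretory pathway and the extracellular matrix and is required for normal growth of the long bones. Fam20c is the Golgi kinase of the acidic proteins of bone and teeth, Fam20a is a pseudokinase that binds and activates Fam20c, and Fam20b phosphorylates the xylose of the linker through which glycosaminoglycan chains are attached to proteoglycans. Loss of FAM20C and of FAM20A in humans disturbs the mineralization of bone and of enamel, respectively.

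The promoters of Pkdcc and Fam20a, the genes with the widest ranges of signal, are shown as they stand in the RefSeq annotation of the mouse assembly GRCm38.p6, as the 250 bases before the annotated start, 5′ to 3′ on the strand of the gene, with every CpG dinucleotide in capitals. The Pkdcc promoter lies at chr17:83215033-83215282 on the plus strand and the Fam20a promoter at chr11:109722239-109722488 on the minus strand.
Pkdcc: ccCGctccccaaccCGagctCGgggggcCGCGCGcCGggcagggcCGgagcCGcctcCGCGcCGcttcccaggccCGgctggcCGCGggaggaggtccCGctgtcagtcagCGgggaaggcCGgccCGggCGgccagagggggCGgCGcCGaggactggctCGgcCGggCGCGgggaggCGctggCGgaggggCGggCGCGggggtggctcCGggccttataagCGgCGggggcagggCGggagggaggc
Fam20a: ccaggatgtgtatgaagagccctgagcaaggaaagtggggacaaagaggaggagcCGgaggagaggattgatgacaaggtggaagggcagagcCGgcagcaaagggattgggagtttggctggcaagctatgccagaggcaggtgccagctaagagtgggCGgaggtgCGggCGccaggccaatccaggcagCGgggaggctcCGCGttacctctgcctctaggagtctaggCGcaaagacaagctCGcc
The Pkdcc promoter held 36 CpG dinucleotides at a GC content of 83.2%, and 97.4% of 32851 mouse promoters of the same length held fewer. The Fam20a promoter was the poorest in CpG of the 4, with 10 at a GC content of 61.2%, and 62.2% of promoters held fewer. The promoters of Fam20b (36 CpG) and Fam20c (41 CpG, with 98.9% of promoters holding fewer) were as rich as that of Pkdcc or richer. The letters TATAA, searched on both strands, occurred in Pkdcc only, within ttataa, which reads as a match on either strand at overlapping bases and starts 33 bases before the annotated start. They were present in 22.8% of all promoters. The GC box GGGCGG was found 4 times before Pkdcc, 3 times before Fam20b and once before Fam20a and Fam20c, and 32.7% of all promoters held it on either strand. The letters CCAAT were absent before Pkdcc, occurred 2 times before Fam20a and once before Fam20b and Fam20c, and were present in 33.8% of all promoters. These are matches of letters, and neither methylation nor factor binding was measured.

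**Figure D1:**
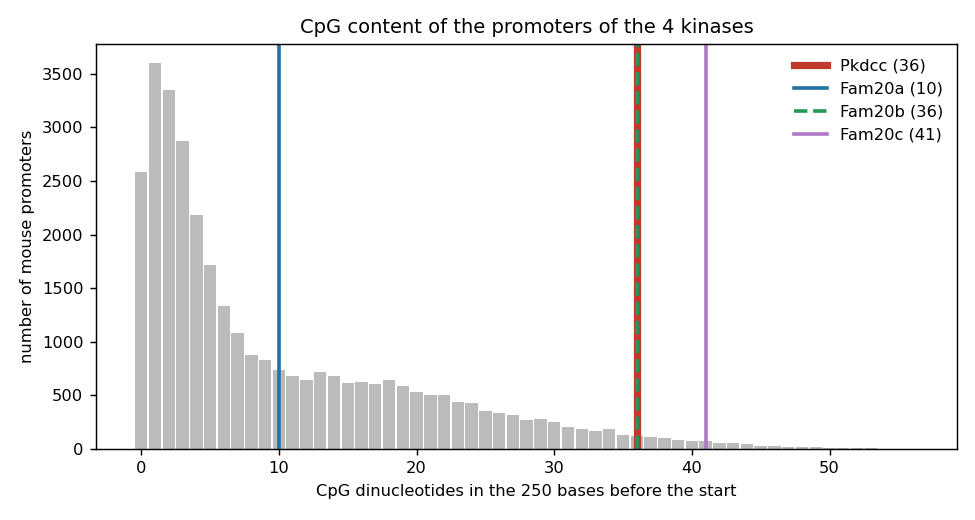
Number of CpG dinucleotides (x axis) in the 250 bases before the annotated start for 32851 mouse promoters (grey bars, number of promoters on the y axis), with vertical lines for the 4 kinases. Pkdcc and Fam20b, whose lines coincide at 36, and Fam20c at 41 lie in the CpG-rich tail, whereas Fam20a at 10 lies closer to the median of 6.

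Signals are given as log2 of the processed signal relative to the 75th percentile of the array, so that a signal of 0 equals that percentile, and values of different probes are not compared with each other. The 75th percentile itself ranged from 287 to 603 signal units in early Dunn, 686 to 961 in late Dunn, 893 to 1316 in early LM8 and 1166 to 1903 in late LM8, and the share of probes well above background from 39.0% on the dimmest array of early Dunn to 59.6% in late Dunn. Late Dunn replicate 1 stood apart, with correlations of 0.919 and 0.923 with replicates 2 and 3, which correlated with each other at 0.986. Of the 9 osteoblast markers examined, 8 had a named probe, and each was well above background on every array where it was measured. Spots marked as outliers were left out, so that 5 to 8 of them were measured on an array. Bglap was not matched to a probe. The log2 of the summed signal of the measured markers ranged from 6.21 to 8.24 in early Dunn, 6.30 to 7.91 in late Dunn, 5.83 to 8.29 in early LM8 and 8.23 to 8.43 in late LM8. The brightest marker, Col1a2, was measured on 1 array of early Dunn, 2 of late Dunn, 2 of early LM8 and 3 of late LM8. Sparc was likewise missing on some arrays of every group but late LM8, so these sums are not comparable between arrays.

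Pkdcc was bright in Dunn cells and not well above background in LM8 cells. In early Dunn cells its log2 signal was 3.82, 3.77 and 4.27 in replicates 1, 2 and 3, corresponding to 5450, 8241 and 5521 signal units. In late Dunn cells it was 3.87, 4.12 and 4.31, or 11076, 16733 and 13644 signal units. All 6 Dunn arrays were well above background, and the early and late groups overlapped. In early LM8 cells the log2 signal was -8.18, -8.31 and -8.71, and in late LM8 cells -8.57, -9.21 and -8.18, or between 2.88 and 4.69 signal units over the 6 arrays. No LM8 array was well above background, so these values do not measure the level of Pkdcc in LM8 and have no order among themselves. In RNA of whole cultures, fewer cells with the transcript and less of it per cell cannot be told apart.

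The group means of Pkdcc were 3.95 ± 0.27 (SD, n = 3) in early Dunn, 4.10 ± 0.22 in late Dunn, -8.40 ± 0.28 in early LM8 and -8.66 ± 0.52 in late LM8. As a floor, signals below the lowest signal of any probe well above background on the same array were raised to that signal. With this floor the LM8 signal was 1412-fold lower than the Dunn signal at early passage and 1982-fold lower at late passage. The floor is no strict limit, since some probes not well above background had higher signals. The measured log2 differences were -12.35 and -12.76. On the 3 slides they were -12.00, -12.08 and -12.97 at early passage and -12.45, -13.33 and -12.50 at late passage. Without late Dunn replicate 1 the difference at late passage was -12.87. Beside Pkdcc, the next genes by measured loss were taken among those well above background on all Dunn arrays of the comparison. At early passage they were C2, a complement component (1316-fold lower with the floor), and Slit3, a secreted guidance ligand (975-fold lower with the floor). At late passage they were Slit3 (802-fold lower with the floor) and Fbn1, which encodes the microfibril protein fibrillin (227-fold lower with the floor). None of them was well above background on an LM8 array of the comparison, so the order of these losses is not settled. The size of the Pkdcc difference depended on how dim signals were treated, and it was -7.70 at early and -8.29 at late passage after normexp background correction.

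Fam20a, the pseudokinase partner of Fam20c, was well above background on all 12 arrays. Its log2 signal was 3.41, 3.51 and 3.88 in early Dunn cells and 3.55, 3.37 and 3.05 in late Dunn cells. It was 3.03, 2.91 and 2.84 in early LM8 cells and 1.88, 1.68 and 1.06 in late LM8 cells. The 3 late LM8 arrays were the lowest of the 12, and early and late Dunn overlapped. The group means were 3.60 ± 0.25 in early Dunn, 3.32 ± 0.25 in late Dunn, 2.93 ± 0.10 in early LM8 and 1.54 ± 0.43 in late LM8 (SD, n = 3). The LM8 mean was thus lower by a log2 difference of -0.67 (1.59-fold) at early and -1.78 (3.44-fold) at late passage.

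Fam20b, the xylose kinase of the proteoglycan linker, lay near the 75th percentile of the arrays and varied least. Its log2 signal was -0.34, 0.16 and -0.05 in early Dunn, -0.07, 0.09 and -0.11 in late Dunn, -0.55, -0.36 and -0.60 in early LM8 and -0.32, -0.38 and -0.09 in late LM8 cells. The group means were -0.08 ± 0.25, -0.03 ± 0.10, -0.50 ± 0.12 and -0.27 ± 0.16 (SD, n = 3) in the same order. Early LM8 lay below all early Dunn arrays, while every pair of groups that were neighbours in the order of the means overlapped.

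Fam20c, the kinase of the acidic matrix proteins, was well above background on all 12 arrays with both of its probes. The brighter Fam20c probe gave log2 signals of 1.76, 1.41 and 2.57 in early Dunn, 1.47, 1.68 and 1.73 in late Dunn, 1.01, 0.83 and 1.19 in early LM8 and 1.49, 1.27 and 1.51 in late LM8 cells. The group means were 1.91 ± 0.60, 1.63 ± 0.14, 1.01 ± 0.18 and 1.42 ± 0.13 (SD, n = 3). Early LM8 held the 3 lowest arrays, and the other neighbours in the order of the means, late LM8, late Dunn and early Dunn, overlapped. The dimmer probe had the same order of group means, -0.92 ± 0.61, -1.32 ± 0.07, -2.07 ± 0.46 and -1.78 ± 0.49, with more overlap, since late LM8 replicate 2 lay at -2.32. Early Dunn replicate 3 was the highest array for both probes.

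**Figure D2:**
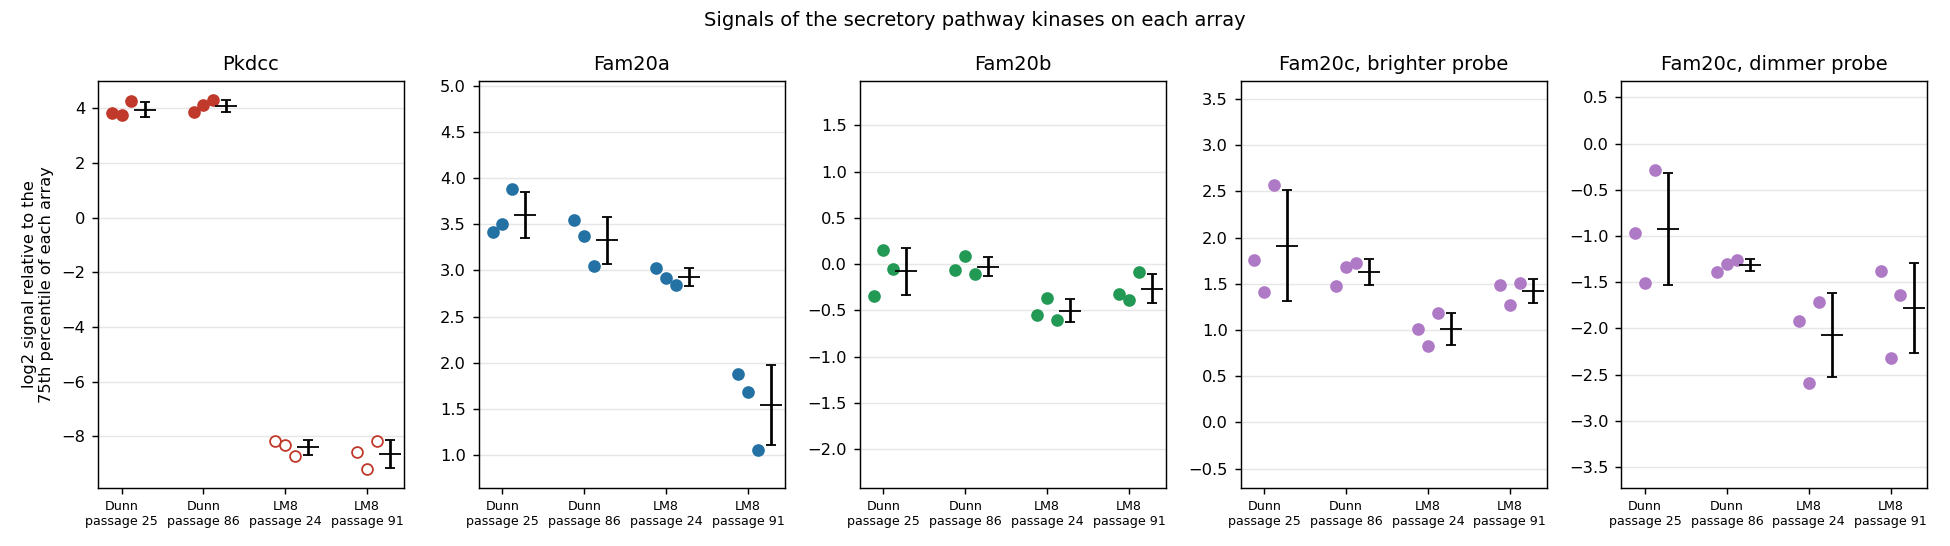
Log2 signal (y axis), scaled to the 75th percentile per array, for the 5 probes of the 4 kinases in the 4 groups (x axis). Each point is 1 array, open where the probe was not well above background, and the bar beside the points is the mean with the SD of 3 arrays. The Pkdcc panel spans a wider range than the others, with Dunn near 4 and LM8 below -8, and Fam20a falls to 1.54 on average in late LM8.

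Between the lines, all 4 kinases had lower means in LM8 at both passages. At early passage the 3 LM8 arrays lay below the 3 Dunn arrays for 4 of 4 kinases, but this held for 48.7% of all genes measured on all 6 arrays. At late passage it held for Pkdcc and Fam20a and for 43.5% of all genes. The median log2 difference over all genes was -0.76 at early and -0.55 at late passage. Over genes well above background on all 6 arrays, as the Fam20 genes were, the median was -0.49 at early and -0.25 at late passage. The early differences of Fam20a (-0.67) and Fam20b (-0.43) were close to these early medians. That of Fam20c (-0.90, and -1.15 for the dimmer probe) was lower than both, but above the lower quartile of all genes (-1.59). The late differences of Fam20b (-0.24) and Fam20c (-0.20, and -0.46 for the dimmer probe) were no lower than the late median of all genes. Only the dimmer Fam20c probe among these lay below the late median of genes well above background (-0.25). Against all genes, the late difference of Fam20a (-1.78) lay below the lower quartile of all genes (-1.33) but not below their 5th percentile (-2.44). The Fam20 directions also depended on the scaling. In the unscaled signals, where the LM8 arrays were brighter, the early difference of Fam20a was 0.80, those of Fam20b were 1.04 and 0.63 and those of Fam20c were 0.56 and 0.67 at early and late passage, whereas Fam20a at late passage (-0.91) and Pkdcc at both passages remained lower in LM8. Without late Dunn replicate 1 the late differences were -1.67 for Fam20a, -0.26 for Fam20b and -0.28 for Fam20c.

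The question whether serial passaging changed the kinases was asked within each line with limma, adjusting p-values over all probes with the Benjamini-Hochberg method. In Dunn cells none of the 4 kinases passed the test between passages 25 and 86. The log2 difference of late minus early was 0.15 for Pkdcc (95% CI -0.64 to 0.94, adjusted p = 0.957), -0.28 for Fam20a (95% CI -1.07 to 0.51, adjusted p = 0.848), 0.05 for Fam20b (95% CI -0.69 to 0.79, adjusted p = 0.999) and -0.29 for Fam20c (95% CI -1.28 to 0.70, adjusted p = 0.894). Early and late arrays overlapped for every probe, and the dimmer Fam20c probe gave -0.39 (adjusted p = 0.809). Few genes passed at all, with 0% of 20130 genes called higher and 0.00497% called lower in late Dunn cells, although 1370 genes had an unadjusted p under 0.05 and the median gene differed by -0.34. With late Dunn replicate 1 left out, the differences were 0.27 for Pkdcc, -0.39 for Fam20a, 0.07 for Fam20b and -0.21 for Fam20c and none was called.

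In LM8 cells Fam20a had the largest passage difference of the 4 kinases but missed the threshold. Its signal was lower in late than in early LM8 cells by a log2 difference of -1.38 ± 0.26 (SE, n = 3 per group, 95% CI -1.996 to -0.773), or 2.61-fold, with an unadjusted p of 0.00116 and an adjusted p of 0.0519 in limma. All late arrays lay below all early arrays, and the difference was -1.15, -1.23 and -1.78 on slides 1, 2 and 3. Over 15 other ways of processing, the log2 difference ran from -1.55 to -1.02 and the limma adjusted p from 0.0071 to 0.379, and it passed 0.05 in 5 of them. With the replicate number, which is also the slide, as a block the adjusted p was 0.0923 in limma. Of all 20144 genes, 1% were called higher and 1.82% lower in late LM8 cells, and the median gene differed by -0.18, so that Fam20a lay below the 5th percentile of all genes, -1.18.

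Fam20b and Fam20c did not pass the test in LM8 cells. Fam20c was higher on each late array than on each early array with the brighter probe, by a log2 difference of 0.41 (95% CI -0.04 to 0.87, adjusted p = 0.297 in limma) and by 0.48, 0.44 and 0.32 on the 3 slides, while the dimmer probe overlapped between the passages (0.29, adjusted p = 0.634). Fam20b differed by 0.24 (95% CI -0.21 to 0.69, adjusted p = 0.468 in limma) and its arrays overlapped. Pkdcc was not well above background in either passage, and no fold is given for it. The signal that Pkdcc showed in Dunn cells was thus not seen in LM8 cells at passage 24 or at passage 91.

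The difference between the passage effects of the lines was tested over all 12 arrays. For Fam20a the passage effect was more negative in LM8 than in Dunn by a log2 difference of -1.11 (95% CI -1.97 to -0.25), with an unadjusted p of 0.0163 and an adjusted p of 0.579 in limma, so that a difference between the lines did not pass. For Fam20b it was 0.19 (95% CI -0.49 to 0.87, adjusted p close to 1) and for Fam20c 0.70 (95% CI -0.23 to 1.64, unadjusted p = 0.125 in limma). The value of Pkdcc, -0.41, rests on LM8 signals that were not well above background. None of the Fam20 genes was among the 0.606% of genes called in this comparison.

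**Figure D3:**
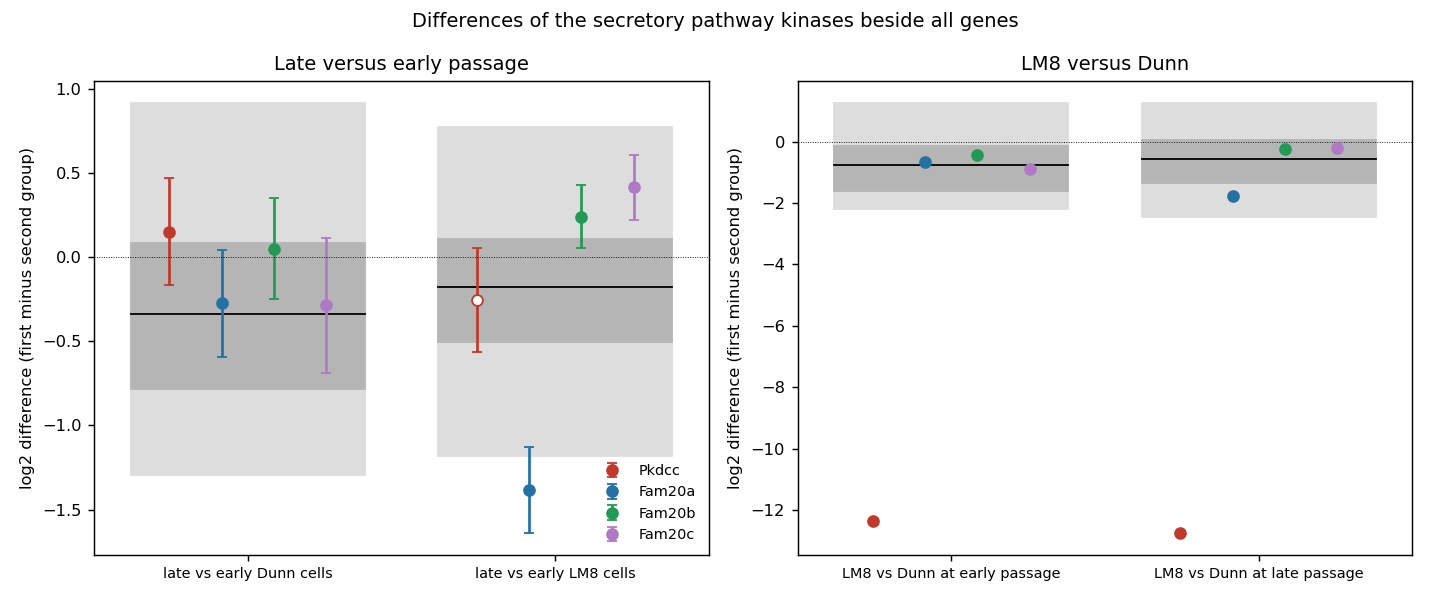
Log2 differences (y axis) of the 4 kinases, by their brighter probe, for late against early passage in each line (left) and for LM8 against Dunn at each passage (right, another scale). Points with bars are the difference with its SE in limma, the open point marks Pkdcc in LM8 where no array was well above background, the points on the right are descriptions without a test, and the shaded boxes give the 25th to 75th (dark) and 5th to 95th (light) percentiles of all genes with their median as a line. Fam20a in LM8 lies outside the light box on the left at -1.38, and only Pkdcc lies outside it on the right.

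The genes whose profiles over the 12 arrays were most like those of Pkdcc and Fam20a were named by the smallest root mean square difference of the log2 signals, each centred on its own mean, among 11293 genes. This is a description, as the 12 arrays share groups and scaling. For Pkdcc these were Slit3 (1.14), the complement component Hc (1.35), the actin-binding protein gene Limch1 (1.44), Fbn1 (1.54) and Sgce (1.54), which encodes a sarcoglycan, against a median of 6.15 over all genes. All 5 were well above background on all 6 Dunn arrays and on none of the 6 LM8 arrays, as Pkdcc was, so their order of likeness rests in part on LM8 signals that were not well above background. Slit3 had group means of 3.42 and 2.80 in early and late Dunn and -7.54 and -7.51 in early and late LM8. Fbn1, which encodes a matrix protein, had means of 0.67 in early and 0.98 in late Dunn, against -8.56 in early and -9.08 in late LM8. The 5 genes lie on chromosomes 11, 2, 5, 2 and 6, and none lies on chromosome 17 with Pkdcc. For Fam20a the nearest genes were Eid2 (0.25), Vopp1 (0.28), Cth (0.28), Prkar1b (0.28) and Ifi35 (0.28), against a median of 0.81. Cth, an enzyme of cysteine synthesis, stepped from 4.78 and 4.15 in early and late Dunn to 3.98 and 3.04 in early and late LM8. Prkar1b, a regulatory subunit of protein kinase A, stepped from 3.06 and 2.41 to 1.92 and 1.15. These 5 genes were well above background on all 12 arrays.

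**Figure D4:**
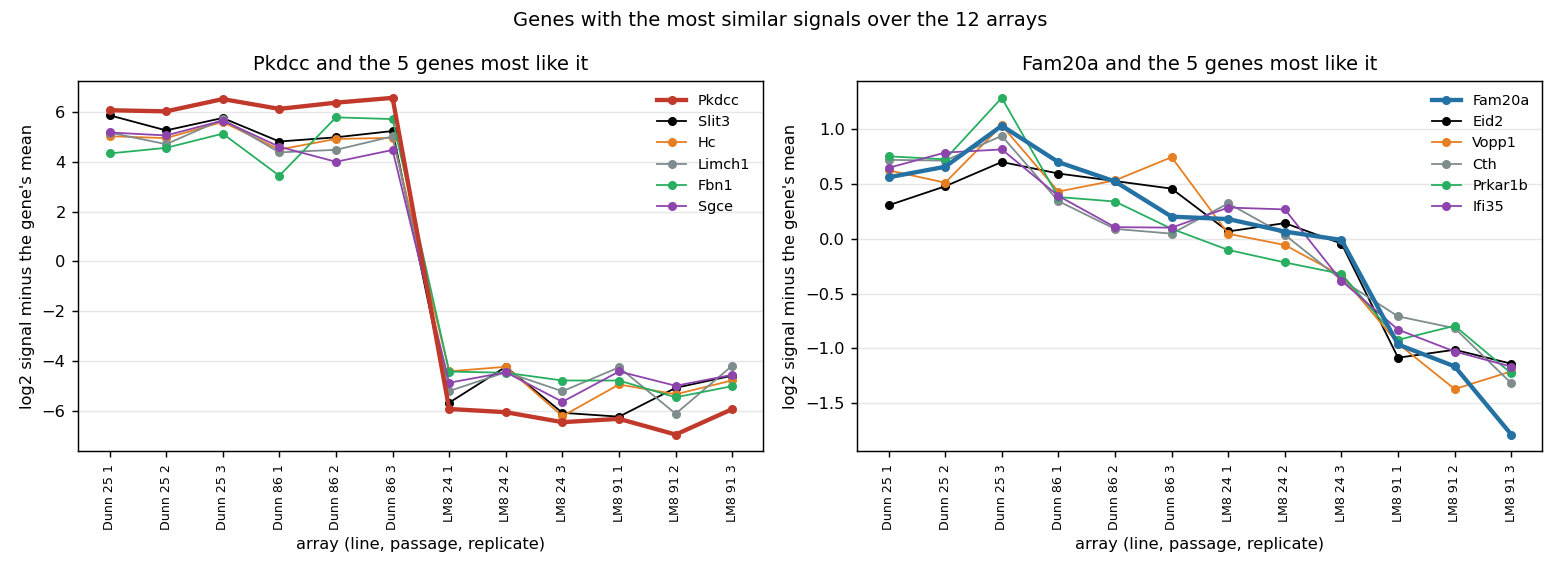
Log2 signal minus the mean of the gene over the 12 arrays (y axis) for Pkdcc (left) and Fam20a (right), as thick lines, and the 5 genes most like each, as thin lines, on the 12 arrays (x axis, labelled with line, passage and replicate). The Pkdcc group drops between the last Dunn and the first LM8 array and stays low, whereas the Fam20a group has its lowest values on the 3 arrays of late LM8.

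Of the other 9 secretory pathway kinases examined, Gask1b alone was called in any comparison. Gask1b, a Golgi-associated relative of the Fam20 family, had log2 signals of -3.56, -4.15 and -3.01 in early Dunn and -1.55, -1.70 and -1.57 in early LM8. Gask1b was well above background on only 2 of the 3 early Dunn arrays. It was higher in early LM8 by 1.97 (adjusted p = 0.0424 in limma), in a comparison in which 1.33% of all genes were called higher and 3.22% lower. The call held in 7 of 15 other ways of processing, and it was lost on leaving out any of the 3 early LM8 arrays or early Dunn replicate 1 or 3, with adjusted p in limma up to 0.196 among these. It was also lost with the replicate block, with the methods' plain comparison and after normexp background correction, where the difference was 0.31 (adjusted p = 0.647 in limma). At late passage Gask1b differed by 0.89 (adjusted p = 0.184 in limma). Pomk, the mannose kinase of dystroglycan, had means of 1.14 in early Dunn and -0.11 in early LM8 without passing (-1.25, adjusted p = 0.0656 in limma), and Fjx1, a relative of the Golgi kinase four-jointed, had means of 0.57 in late Dunn and 1.27 in late LM8 (0.69, adjusted p = 0.190 in limma). The median difference of the 9 kinases was -0.19 at early and 0.69 at late passage between the lines and -0.05 and -0.25 for passage in Dunn and LM8.

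Fam20b acts on the linker that the proteoglycan linker enzymes build and extend, and 1 of these 13 enzymes was called. Csgalnact1, the transferase that starts chondroitin chains on the linker, had log2 signals of -0.22, -0.93 and -1.27 in early Dunn, -1.42, -1.60 and -1.20 in late Dunn, -7.08, -6.72 and -8.12 in early LM8 and -8.31, -9.00 and -8.60 in late LM8. It was well above background on all 6 Dunn arrays and on no LM8 array, as was the case for Pkdcc. Csgalnact1 was called lower in LM8 at early (adjusted p = 0.00167 in limma) and late passage (adjusted p = 7.12e-04 in limma). With dim LM8 signals raised to the floor it was 52.1-fold lower at early and 43.5-fold lower at late passage, which are no strict limits. At late passage 1.25% of all genes were called higher and 2.59% lower. Both calls held in 15 of 15 other ways of processing, but the sizes and floored folds are those of the scaled processed signals. After normexp background correction, which adds an offset of 50 to every signal, the log2 difference was -3.12 at early and -2.79 at late passage. Its paralogue Csgalnact2 was not called (1.22 at early and 0.46 at late passage). The enzymes of the linker itself were not called either, such as Xylt2, which adds the xylose (-0.63 and -0.40), and B4galt7, which adds the next galactose (-0.58 and -0.40). Nor was Pxylp1, the phosphatase that removes the phosphate set by Fam20b (0.38 and 0.57 with its brighter probe). The dimmer Pxylp1 probe gave -1.22 and -1.26. It was not well above background on any early array and on only 1 late Dunn and 2 late LM8 arrays. The median of the 13 enzymes was -0.63 at early and -0.40 at late passage. These lay between the medians of all genes (-0.76 and -0.55) and of genes well above background on all 6 arrays (-0.49 and -0.25). None of the enzymes was called between passages.

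**Figure D5:**
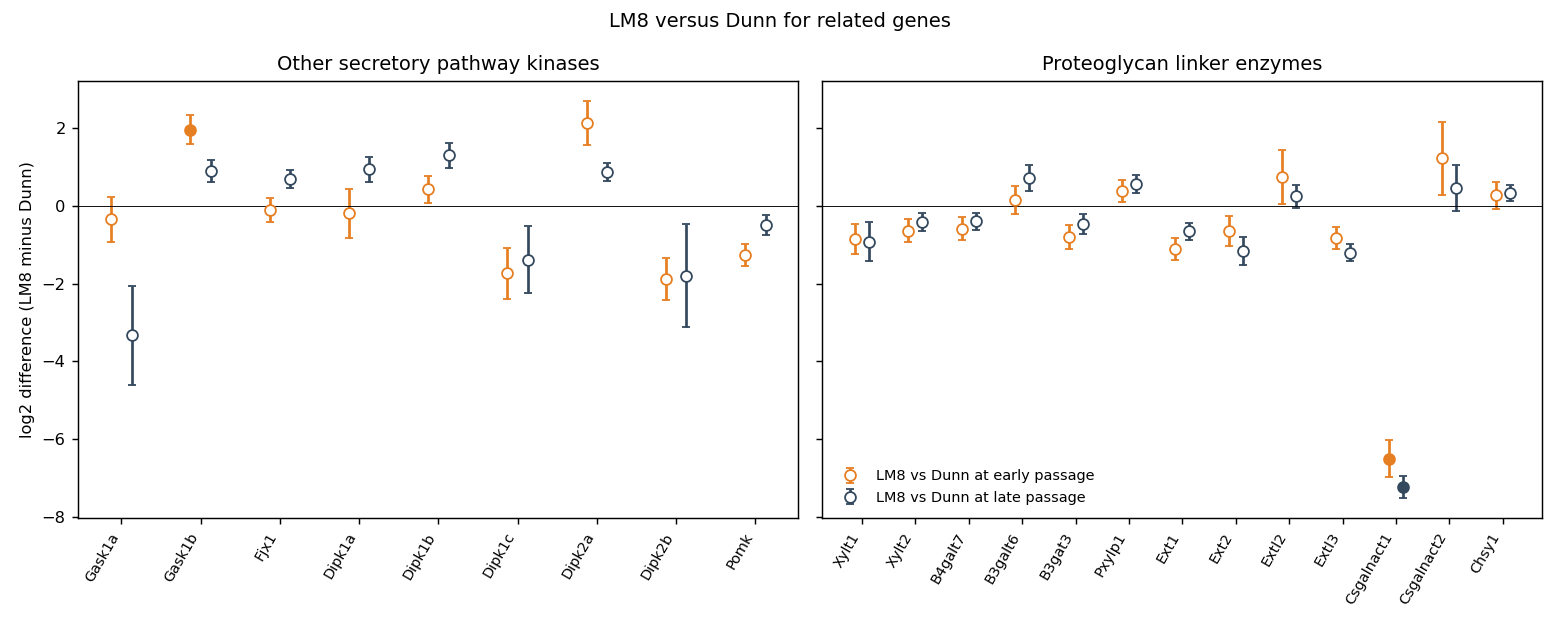
Log2 difference of LM8 minus Dunn (y axis) with its SE in limma for 9 other secretory pathway kinases (left) and 13 proteoglycan linker enzymes (right), at early (orange) and late (dark) passage. Filled points passed an adjusted p of 0.05. Csgalnact1 stands apart at -6.50 and -7.23, measured against LM8 signals that were not well above background, and Gask1b is the only filled point on the left.

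None of the 9 listed Fam20c substrates of bone and teeth, which are secreted proteins, was called in any of the 5 comparisons. In these comparisons at most 3.22% of all genes were called in any 1 direction. Ambn, Amelx, Dspp and Enam, genes of enamel and dentin, were well above background on at most 1 array of each group. Spp1, which encodes osteopontin, had mean log2 signals of 3.73 in early Dunn, 4.06 in late Dunn, 2.55 in early LM8 and 3.36 in late LM8, with 1 array of each Dunn group left out because its spots were marked as outliers. Ibsp, which encodes bone sialoprotein, had means of 4.49, 4.24, 3.24 and 3.86 with its brighter probe. Dmp1, a matrix protein of osteocytes, had means of -4.19 in early Dunn, -5.52 in late Dunn, -4.39 in early LM8 and -2.58 in late LM8. Late LM8 was the highest group for Dmp1, and the difference between its passage effects in the lines was 3.14 (unadjusted p = 9.05e-04, adjusted p = 0.118 in limma). The probes of Fgf23 disagreed, the brighter having means between 2.14 and 2.83 and the dimmer not being well above background on any array. The median of the list was -1.17 at early and -0.69 at late passage between the lines. Beside it, the median of all genes was -0.76 at early and -0.55 at late passage. Only 2 of the 9 genes were well above background on all 6 arrays at either passage, so a shift of the list cannot be read from its median. Spp1 and Ibsp are also among the osteoblast markers.

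Among 11 genes of the growth plate, where Pkdcc acts in the developing skeleton, 2 were called. The shares of all genes called higher and lower were 1.33% and 3.22% between the lines at early passage, 1.25% and 2.59% at late passage and 1% and 1.82% between the passages of LM8. Ihh, the hedgehog ligand of hypertrophic cartilage, was higher in early LM8 than in early Dunn by a log2 difference of 2.65 (adjusted p = 0.0314 in limma). With dim Dunn signals raised to the floor it was 3.14-fold higher, which is no strict limit. A dimmer Sparc probe, between -3.22 and -3.02 on the early Dunn arrays, was well above background on only 2 of them. The means of Ihh were -5.75 in early Dunn, where no array was well above background, and -3.10 in early LM8. At late passage the means were -5.44 and -3.69, and the difference was 1.75 (adjusted p = 0.0456 in limma). These calls held in 7 and 4 of 15 other ways of processing, and after normexp background correction the difference was -0.56 at early and 0.097 at late passage (adjusted p = 0.457 and 0.736 in limma). Col10a1, the collagen of hypertrophic cartilage, had means of -5.41 in early Dunn, -2.83 in late Dunn, -7.04 in early LM8 and -4.73 in late LM8. It was higher in late than in early LM8 cells by a log2 difference of 2.31 (adjusted p = 0.00704 in limma). With dim early signals raised to the floor it was 3.45-fold higher, which is no strict limit. The late means were lower in LM8 by -1.90 (adjusted p = 0.0339 in limma). The first of these calls held in 12 and the second in 7 of 15 other ways of processing, and after normexp background correction the passage difference was 0.45 (adjusted p = 0.755 in limma). In Dunn the late mean of Col10a1 was 2.58 higher without passing (adjusted p = 0.236 in limma). Runx2, Sox9, Acan, Col2a1, Pthlh, Pth1r, Gli1, Gli2 and Gli3 were not called in any comparison.

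Markers of other cell types were read on the same arrays. Of 4 macrophage markers 3 were measured, Cd68 being unmatched, and 1 to 2 of them were well above background on each array, with the log2 of the summed signal of the list between -3.05 and -1.85 over all arrays. Of 3 endothelial markers 1 to 2 were well above background, with the list between -0.81 and 0.79. This sum came mostly from the brighter Kdr probe, while the dimmer Kdr probe and Cdh5 were not well above background on any array. Of 4 epithelial markers none was well above background in early Dunn or late LM8, up to 1 in early LM8 and up to 2 in late Dunn. The list lay between -6.68 and -0.99. Its upper end came from late Dunn, where Epcam and Krt18 were each well above background on only 1 array. None of these markers was called in any comparison, and their part in the kinase signals was not tested.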

How the data were processed

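RNA of 12 samples was hybridised to 1-colour Agilent arrays by the authors, who scanned them and extracted intensities with Feature Extraction 10.7.3 (submitters' processing notes). The deposited scanner files hold the processed signal intensity of each spot with its background and outlier flags, and the deposited table of all arrays holds the same intensities without scaling (every value within 1%). Control spots and those flagged as outliers did not enter the values used here, each intensity was divided by the 75th percentile of its array and taken to log2 (the deposited files hold no log2 values), and spots were averaged to 39429 probes. Of these, 26581 (67.4%) were named by accession through RefSeq (GRCm38.p6, names and promoters only), and a gene was read by its brightest probe. A probe was well above background where at least 0.5 of its spots were. Pairs of groups were fitted with limma 3.58.1 in R 4.3.3 without a block, the interaction over 12 arrays, with Benjamini-Hochberg adjustment over all probes. The fit was tested on simulated data. P-values measure the spread between the 3 replicates per group, whose number limits the precision. No separate passage series of a line is described, so the spread between such series was not measured.

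The members and gene lists were chosen with earlier results of these data known. Named genes were the members with every probe, list genes, those called first, and the 5 genes most like each member whose group means ranged over more than 2. The plan assumed that LM8 passage had chosen Pkdcc. The arrays showed that the contrast of the lines had, so that contrast is given without a test for the members. Pkdcc is also only described where its LM8 passages enter. Normexp used the median spot signal in place of the mean signal. Replicate numbers coincide with slides, and deviations of arrays with the same number correlated at -0.24 to 0.68 over 18 pairs (12 over 0.1). Alternatives were quantile normalization, normexp, unscaled signals, a floor and a filter on dim probes, probe averaging, 1 fit over all arrays, the replicate block, the methods' t-test, run as a plain 2-sample comparison, and leaving out each array.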

Additional observations from a re-analysis of the deposited data

How the results depend on the processing

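The number of kinases called between passages in LM8 cells was 0, and 1 (Fam20a) under quantile normalization, normexp, the floor on dim signals, the filter on dim probes and 1 fit over 12 arrays, with limma adjusted p of 0.0498, 0.0118, 0.0071, 0.0147 and 0.0474. It stayed 0 in Dunn in 15 and for the interaction in 19 alternatives. With the replicate block the Fam20a difference in LM8 was -1.38 (adjusted p = 0.0923 in limma) and no kinase was called. Between the lines at early passage Pkdcc was -11.72 under quantile normalization, -7.70 under normexp, -10.88 unscaled and -10.46 with the floor, and Fam20a was -0.47, -0.39 and 0.80 (unscaled), Fam20b 1.04 and Fam20c 0.56 (unscaled). At late passage Pkdcc was -11.79, -8.29, -11.89 and -10.95, and unscaled Fam20a was -0.91, Fam20b 0.63 and Fam20c 0.67. Among differences that were not called, the sign turned in unscaled signals for Fam20a (0.69) and Fam20c (0.68) in Dunn passage, Pkdcc in LM8 passage (0.11) and Fam20b in the interaction (-0.41), under quantile normalization for Pkdcc in LM8 passage (0.27), and on leaving out 1 array for Fam20b (-0.081 to 0.168) and Fam20c (-0.540 to 0.042) in Dunn passage and Pkdcc in LM8 passage (-0.492 to 0.019). Ihh at early passage was -0.56 under normexp. Numbers of genes called moved more, from 1 to between 0 and 358 in Dunn passage, 569 to 236 and 839 in LM8 passage, 916 to 153 and 8971 between the lines at early and 772 to 78 and 2759 at late passage, and 122 to 28 and 305 for the interaction. Without late Dunn replicate 1, 27 genes were called in Dunn passage, 1954 between the lines at late passage and 236 for the interaction, and without early Dunn replicate 2 the count between the lines at early passage was 8580. The causes were not tested. The dimmer early Dunn arrays limit what can be read for dim probes. So does late Dunn replicate 1, whose median deposited signal was 82, against 9.58 to 51.2 on the other arrays. The level of Pkdcc in LM8 is not known, since no LM8 array was well above background for it.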
